A study of Homo sapiens with 51 samples.

Results

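The second 6 hours of BMP4 treatment of human embryonic stem cells are described here, from 6 of the 51 libraries of a time course: the 3 BMP4 12 h libraries set against the 3 BMP4 6 h libraries, chosen by the condition and time in their labels. The cells are H1, a single established human embryonic stem cell line, grown on growth factor-reduced Matrigel in mTeSR1 before treatment. Both groups received BMP4 at 50 ng/mL, without Activin, in TeSR E5 medium that also held insulin at 3.2 µM, FGF2 at 20 ng/mL and LY29004, as the labels spell it, at 1 µM. They differ in the time of collection, 12 h or 6 h after the change of medium. For the same interval in another condition, 3 libraries at 12 h and 3 at 6 h from cells given Activin at 100 ng/mL with BMP4 at 10 ng/mL in the same medium are set beside them, and levels in BMP4 cells at 1 h and 24 h and in untreated cells are given for orientation. RNA of each sample (400 ng) was made into a KAPA RNA HyperPrep library.

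BMP4 binds type I and type II receptor kinases that phosphorylate SMAD1, SMAD5 and SMAD9, which enter the nucleus with SMAD4 and raise genes such as the ID family. Several of the first targets, among them SMAD6, SMAD7, BAMBI and secreted antagonists, restrain the pathway. Activin and NODAL act through SMAD2 and SMAD3 instead, and in pluripotent stem cells that branch helps to hold NANOG and the pluripotent state. Sustained BMP4 with little Activin or NODAL signal drives human embryonic stem cells towards amnion-like, trophoblast-like or mesodermal fates.

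The 12 h libraries held 25.9 to 28.7 M counts and the 6 h libraries 26.6 to 29.4 M. Totals were adjusted by TMM (trimmed mean of M values) factors and counts expressed per 1e6 of them (CPM); mean ± SD is over 3 libraries. Genes count as called at a change of at least 2-fold and a p under 0.05 in edgeR's quasi-likelihood test after Benjamini-Hochberg adjustment over 19603 genes; smaller changes are counted by the adjusted p alone. The labels number the repeats without saying that they were separate cultures; the p-values therefore measure only how far these samples vary, which may be technical. The 12 h replicate 1 stood apart from the other 12 h libraries, at 20.15 and 26.18 from them in chi-square over its degrees of freedom, against 4.364 between those, while the 6 h libraries lay at 5.052 to 8.407 from each other. The mitochondrially encoded genes took 2.15 to 2.75% of counts at 12 h and 1.7 to 2.29% at 6 h, with a median log2 fold change of 0.23 over the 13. None of the 13 reached an adjusted p under 0.05, whereas 12 did, all of them higher, in a fit without the filter on low counts, and 1 in a fit of only the compared groups with replicate number as a block. Their part in the results was not tested. The cultures are bulk samples, so fewer cells of a type and less RNA per cell cannot be told apart.

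The label of the cells as pluripotent stem cells was checked first. POU5F1, the OCT4 transcription factor of pluripotent cells, averaged 1512 ± 14.7 CPM at 12 h and 1596 ± 48.5 CPM at 6 h, and the difference did not pass (edgeR quasi-likelihood adjusted p = 0.299). SOX2 stood at 271 and 258 CPM and the RNA-binding protein gene LIN28A at 2784 and 2761 CPM at 12 h and 6 h. NANOG and DNMT3B, also taken as markers of pluripotent cells, fell in small steps, as given below. Several genes that define later cell types were near 0 at both times: CDX2, the caudal homeobox gene of trophoblast and posterior mesoderm, had 0.585 CPM at 12 h and 0.328 CPM at 6 h, and the endoderm factor SOX17 0.0251 and 0.0482 CPM. Other markers of later fates, among them TFAP2A, GATA3 and KDR, were not near 0, and their levels are given below. The summed level of the 21 amnion markers ran from 706 to 751 CPM at 12 h and from 812 to 852 CPM at 6 h. That of the 20 neural ectoderm markers ran from 546 to 641 CPM at 12 h and from 647 to 668 CPM at 6 h. The 26 trophoblast markers, whose keratin and integrin genes are shared with other epithelia, summed to 705 to 724 CPM at 12 h and 599 to 603 CPM at 6 h, with GCM1, HSD3B1, LGALS13 and SIGLEC6 at 0. Their part in the results was not tested.

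Between 6 h and 12 h gene levels moved in small steps. Untreated cells were collected at 0 h only, so BMP4, the changed medium and time in culture cannot be told apart. Of 19603 genes tested, 206 were called (1.05%), 94 of them higher at 12 h (0.480%) and 112 lower (0.571%). By adjusted p alone 1793 genes were higher (9.15%) and 1652 lower (8.43%), so most of the passing changes were smaller than 2-fold. The median called gene differed 2.4-fold among the higher and 2.45-fold among the lower genes. Only 5 higher and 4 lower calls passed 8-fold, and 10 calls in each direction reached 10 CPM in the group where they were higher. Some of the calls past 8-fold were genes under 1 CPM with 0 counts in every library of 1 time, where the fold rests on few counts. The 12 h and 6 h libraries did not overlap in 84 of the 94 higher and 109 of the 112 lower calls, beside 33.7% of all genes tested. The calls rest on these same libraries, so this follows largely from the thresholds and is no separate support. The called genes were protein coding in 67 of the 94 higher and 92 of the 112 lower cases, and the others were mostly long noncoding RNAs and pseudogenes.

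**Figure D1:**
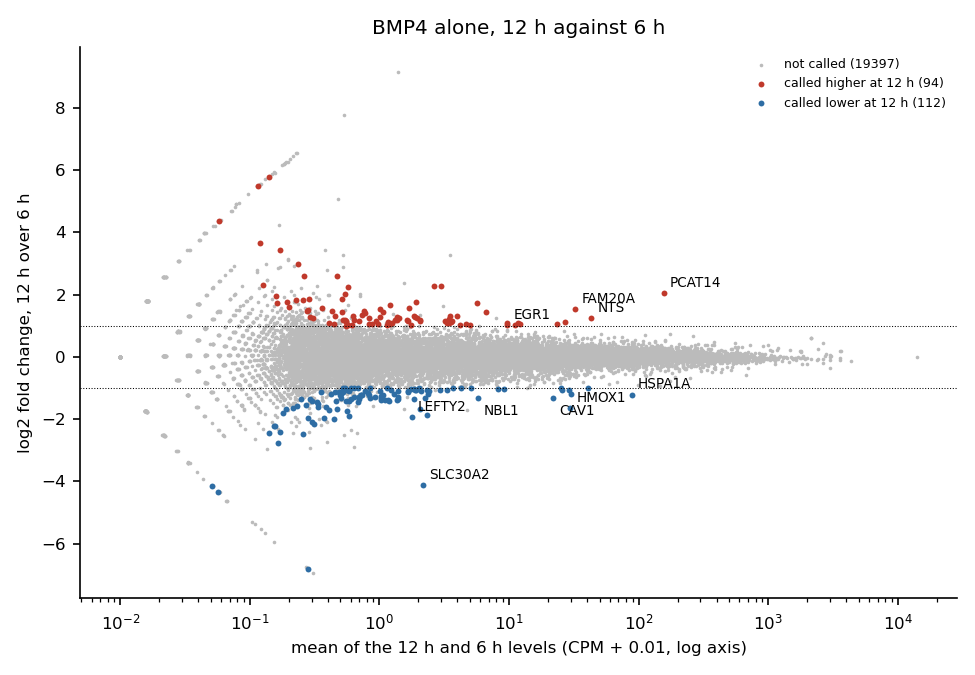
Each point is 1 of 19603 genes, with the mean of the 12 h and 6 h levels on the x axis (CPM + 0.01, log scale) and the log2 fold change of 12 h over 6 h on the y axis; called genes are coloured. Of the 206 called genes, 94 lie above zero and 112 below, most of them at low levels.

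Among well expressed genes the strongest rise was that of PCAT14, a long noncoding RNA gene first known from prostate cancer (ENSG00000280623, GRCh38 chr22:23536881-23547797, plus strand). PCAT14 had 232, 237 and 288 CPM in the 12 h libraries and 60.2, 59.1 and 63.3 CPM in the 6 h libraries. Every 12 h library was far above every 6 h library. A lack of overlap is part of the rule that chose this and the other well expressed genes named below. The means were 252 ± 30.9 CPM at 12 h and 60.9 ± 2.19 CPM at 6 h, and the log2 fold change was 2.05, with a standard error (SE) of 0.18 (edgeR quasi-likelihood adjusted p = 1.28e-11). The gene was nearly silent in untreated cells (2.14 CPM) and after 1 h of BMP4 (1.87 CPM), and it stood at 1052 CPM at 24 h.

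FAM20A encodes a pseudokinase that activates the secretory-pathway kinase FAM20C. It had 48.5, 45.6 and 51.5 CPM at 12 h and 15.8, 16.7 and 17.7 CPM at 6 h, without overlap (log2 1.54 ± 0.13, the SE throughout; edgeR quasi-likelihood adjusted p = 1.34e-11). NTS, the precursor of the peptide neurotensin, had 56, 57.8 and 67.3 CPM at 12 h and 24.5, 27.1 and 25.1 CPM at 6 h. The 12 h libraries were all above the 6 h libraries, and the log2 fold change was 1.24 ± 0.11 (edgeR quasi-likelihood adjusted p = 6.2e-11). LDB2, a cofactor of LIM-domain transcription factors, averaged 36.8 ± 2.97 CPM at 12 h and 17.1 ± 0.193 CPM at 6 h.

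The other well expressed genes that rose were closer to the 2-fold threshold. SDK2, an immunoglobulin-family adhesion protein, had 30.6, 34.5 and 30.3 CPM at 12 h and 13.4, 15.4 and 17.5 CPM at 6 h (log2 1.04 ± 0.10; edgeR quasi-likelihood adjusted p = 2.76e-10). EGR1, an immediate early zinc finger factor induced through ERK, had 14.9, 13.1 and 10.8 CPM at 12 h and 6.2, 5.97 and 6.89 CPM at 6 h. Its 12 h libraries were spread more widely than its 6 h libraries but did not overlap them (log2 1.02 ± 0.18, edgeR quasi-likelihood adjusted p = 5e-05). EGR1 was the 1 higher gene by adjusted p among 21 tested immediate early genes. Of these 5 were lower, beside 9.15% higher and 8.43% lower over all genes. FOSL1 was called lower (log2 -1.05), but was under 2-fold without 12 h replicate 2 or 3 or 6 h replicate 3. The membrane protein gene THSD7A, the Schlafen gene SLFN5 and CACNG8, an auxiliary subunit of glutamate receptors, had log2 fold changes of 1.09, 1.07 and 1.06. Leaving out single libraries took 4 of these genes just under 2-fold: SDK2 to 0.97 (log2) without 12 h replicate 2 and 0.94 without 6 h replicate 1, EGR1 to 0.91 without 12 h replicate 1 and 0.98 without 6 h replicate 2, THSD7A to 0.98 without 12 h replicate 3 and CACNG8 to 0.96 without 6 h replicate 2.

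**Figure D2:**
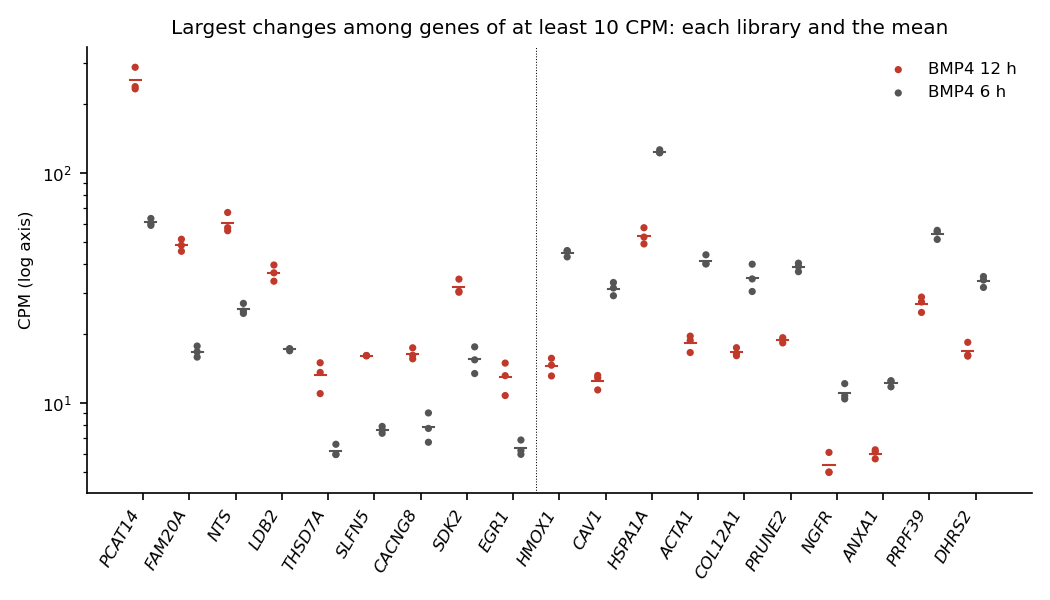
Level of each named gene in each library (CPM, log axis), 12 h libraries left of 6 h libraries in each gene, for the 9 named genes that were higher at 12 h and the 10 that were lower. The libraries of the times do not overlap in any of the 19 genes, which is part of the rule that chose them.

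The well expressed genes that fell included an oxidative stress gene and a heat shock gene. HMOX1, the haem oxygenase that breaks down haem, had 14.6, 13.1 and 15.6 CPM at 12 h and 45.7, 45.9 and 43.1 CPM at 6 h. All 3 libraries at 12 h were below all 3 at 6 h, and the log2 fold change was -1.64 ± 0.09 (edgeR quasi-likelihood adjusted p = 1.47e-17). HSPA1A, an inducible HSP70 chaperone, had 57.7, 49.1 and 52.6 CPM at 12 h and 122, 126 and 123 CPM at 6 h (log2 -1.22 ± 0.06; edgeR quasi-likelihood adjusted p = 1.53e-19). HSPA1A shares nearly all its sequence with HSPA1B, so the division of reads between the pair is uncertain; HSPA1B, named after its values were seen, averaged 69.1 ± 4.77 CPM at 12 h and 128 ± 1.66 CPM at 6 h.

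CAV1, the scaffold protein of caveolae, had 11.4, 13.2 and 12.8 CPM at 12 h and 33.4, 31.6 and 29.2 CPM at 6 h (log2 -1.33 ± 0.12; edgeR quasi-likelihood adjusted p = 9.36e-11). ACTA1, the skeletal muscle actin, averaged 18.2 CPM at 12 h and 41.5 CPM at 6 h, and COL12A1, a fibril-associated collagen, 16.6 and 35.0 CPM. The neurotrophin receptor NGFR, the annexin ANXA1, the splicing factor PRPF39, the reductase DHRS2 and PRUNE2 also fell, by 1.01 to 1.05 on the log2 scale, just past the threshold. Without single libraries COL12A1 (-0.97) and NGFR (-0.98, both without 6 h replicate 3), ANXA1 (-0.99 without 12 h replicate 1), PRPF39 (-0.95 without 12 h replicate 1, -0.99 without 6 h replicate 1) and DHRS2 (-0.98 without 12 h replicate 1, 12 h replicate 2 or 6 h replicate 1) were under 2-fold. DHRS2 was a transient case by level, at 2.23 CPM in untreated cells, 6.58 CPM at 1 h, 33.8 CPM at 6 h, 16.8 CPM at 12 h and 7.55 CPM at 24 h of BMP4.

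A gene was taken as switched off when it was called, below 1 CPM in each 12 h library and at least 2 CPM in each 6 h library, and as switched on in the reverse case. By this rule 2 genes were switched off, SLC30A2 and LEFTY2, and 0 were switched on. SLC30A2, a zinc transporter of vesicles (GRCh38 chr1:26037252-26046133, minus strand), had 0.275, 0.255 and 0.151 CPM at 12 h and 3.54, 4.25 and 4.43 CPM at 6 h. The 12 h level lay 17.5-fold below the 6 h level (log2 -4.13 ± 0.27; edgeR quasi-likelihood adjusted p = 5.68e-15). With Activin+BMP4 it stood at 0.293 CPM at 12 h and 4.58 CPM at 6 h.

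Among 19 genes known as BMP targets or feedback regulators, 1 was called higher and 0 lower, and by adjusted p alone 3 were higher and 8 lower. Their median log2 fold change was -0.22, against 0.00223 over all genes tested. The shares over all genes were 0.480% called higher and 0.571% called lower, and 9.15% and 8.43% by adjusted p alone. ID1, the classic early SMAD1/5 target, had 373, 372 and 407 CPM at 12 h and 473, 525 and 501 CPM at 6 h. Every 12 h library was below every 6 h library, yet the step was small (log2 -0.38 ± 0.07; edgeR quasi-likelihood adjusted p = 0.000179). ID2, ID3 and ID4, the receptor decoy BAMBI, the inhibitory SMAD7, GATA2 and ATOH8 fell too, by 0.22 (ID3) to 0.87 (ATOH8) on the log2 scale.

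Other members differed from the ID genes in direction. The homeobox gene MSX2 averaged 17.6 CPM at 12 h and 11.4 CPM at 6 h (log2 0.62), and SMAD6, an inhibitory SMAD, 56.2 and 43.0 CPM (log2 0.38). ID1 levels with BMP4 were 82.3 CPM in untreated cells, 200.2 CPM at 1 h, 499.8 CPM at 6 h, 384 CPM at 12 h and 359 CPM at 24 h, so the highest level of these 5 was at 6 h.

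Of 21 BMP ligands, receptors and secreted antagonists, 4 were higher and 3 lower by adjusted p, beside 9.15% and 8.43% over all genes. Of those lower, 1 was called, beside 0.571% over all genes. The BMP4 gene had 10.1, 9.67 and 10.4 CPM at 12 h and 5.57, 5.64 and 5.09 CPM at 6 h (log2 0.89 ± 0.09; edgeR quasi-likelihood adjusted p = 2.94e-10). All 12 h libraries were close to each other and above all 6 h libraries, and the level at 24 h was 61.1 CPM. BMP7, another ligand, averaged 19.7 CPM at 12 h and 12.8 CPM at 6 h (log2 0.62). The antagonists NBL1 and GREM1 were lower: NBL1 fell to 3.26 CPM at 12 h, against 8.21 CPM at 6 h (log2 -1.33, called), and GREM1 to 13.7 CPM, against 23.8 CPM (log2 -0.80).

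LEFTY2, CER1 and NODAL, which were low already at 6 h, fell further. Of 17 genes of the NODAL pathway, 0 were called higher and 2 lower, and by adjusted p alone 1 was higher and 8 lower, with a median log2 fold change of -0.33. Over all genes 0.480% were called higher and 0.571% lower, and 9.15% and 8.43% passed by adjusted p alone. LEFTY2, a secreted NODAL inhibitor and a target of the pathway, had 0.653, 0.8 and 0.715 CPM at 12 h and 2.6, 2.82 and 2.98 CPM at 6 h (log2 -1.95 ± 0.36; edgeR quasi-likelihood adjusted p = 7.75e-05). CER1, an antagonist of NODAL and BMP, had 0.378, 0.727 and 0.489 CPM at 12 h and 0.967, 1.69 and 1.28 CPM at 6 h (log2 -1.29 ± 0.34; edgeR quasi-likelihood adjusted p = 0.00509). The ligand gene NODAL had 0.997, 1.42 and 2.03 CPM at 12 h and 2.37, 2.6 and 2.49 CPM at 6 h. In these 3 genes no 12 h library reached a 6 h library. The fall of NODAL was near the limit of the test (log2 -0.76 ± 0.27; edgeR quasi-likelihood adjusted p = 0.0458), and its level was 14.4 CPM at 24 h. SMAD3, which carries the signal, averaged 11.1 CPM at 12 h and 13.9 CPM at 6 h, and GDF3, a related ligand, rose to 14.0 CPM at 12 h, against 10.96 CPM at 6 h. GDF3 was the 1 higher member, and the count was 0 without 12 h replicate 3, with only the groups compared, and with the block added to that fit.

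Pluripotency genes changed in small steps. Of 26 members 0 were called, and by adjusted p alone 2 were higher and 3 lower, near the 9.15% and 8.43% over all genes. The median log2 fold change was -0.00474. The count of higher genes was 1 without 12 h replicate 1 or 2 or 6 h replicate 1 or 2. NANOG had 132, 134 and 149 CPM at 12 h and 166, 175 and 165 CPM at 6 h (log2 -0.28 ± 0.04; edgeR quasi-likelihood adjusted p = 2.35e-07). The de novo DNA methyltransferase DNMT3B fell to 1835 CPM at 12 h, against 2140 CPM at 6 h, and LIN28B to 248 CPM, against 305 CPM. FOXD3, a forkhead factor, was higher at 12 h by 0.38 on the log2 scale.

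**Figure D3:**
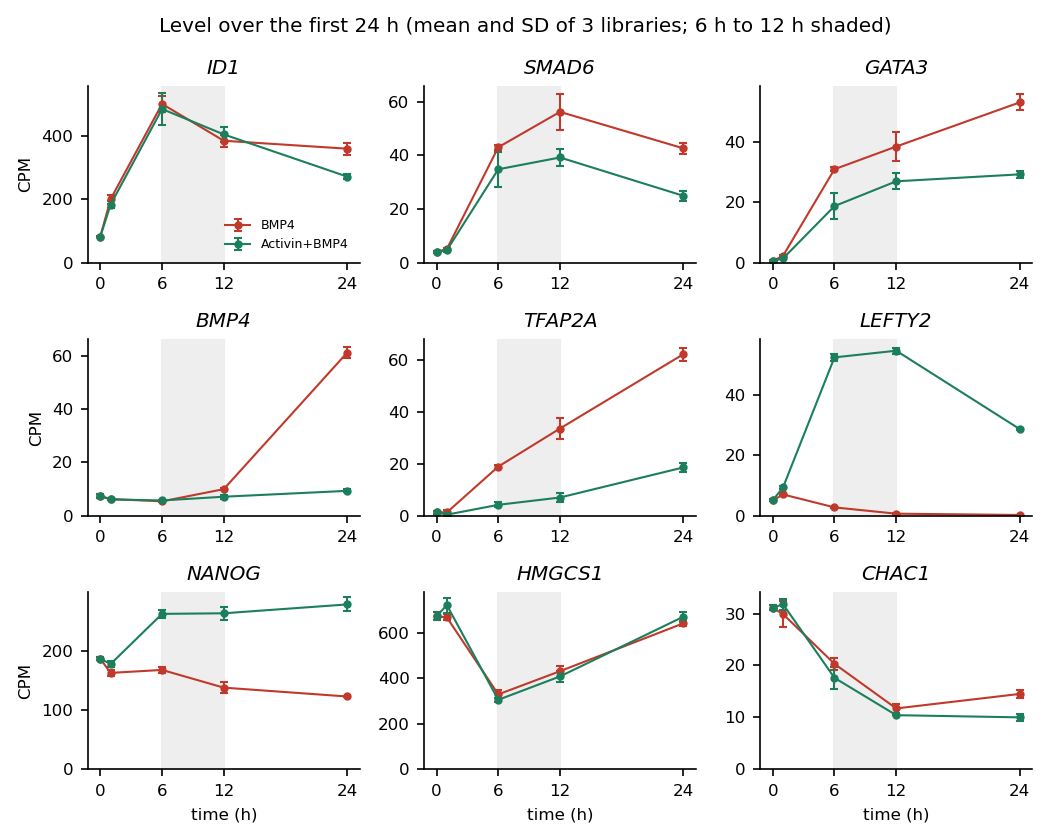
Mean level ± SD of 3 libraries (CPM) at 0, 1, 6, 12 and 24 h for 9 genes, with BMP4 and Activin+BMP4 as separate lines; the interval from 6 h to 12 h is shaded. ID1 with BMP4 is highest at 6 h, whereas TFAP2A and the BMP4 gene with BMP4 are highest at 24 h among the times shown.

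Markers of the fates that BMP4 can drive moved in both directions, with TFAP2A among those that rose. Of 21 amnion genes 3 were higher and 5 lower by adjusted p, beside 9.15% and 8.43% over all genes, and 0 were called. TFAP2A, an AP-2 transcription factor of surface ectoderm, amnion and trophoblast, had 29.1, 35.3 and 36.9 CPM at 12 h and 18.9, 18.3 and 19.9 CPM at 6 h. Every 12 h library was above the 6 h libraries (log2 0.83 ± 0.12; edgeR quasi-likelihood adjusted p = 8.33e-07). Its level was 1.45 CPM in untreated cells, 1.32 CPM at 1 h and 62.4 CPM at 24 h. GATA3, a factor of amnion and trophoblast, averaged 38.4 CPM at 12 h and 30.9 CPM at 6 h and did not pass (edgeR quasi-likelihood adjusted p = 0.0556). IGFBP3, a secreted binding protein of insulin-like growth factors, fell to 15.7 CPM at 12 h, against 27.9 CPM at 6 h (log2 -0.83).

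Of 19 trophoblast genes tested out of 26, 3 were higher and 1 lower by adjusted p, beside 9.15% and 8.43% over all genes. Of 18 primitive streak genes, SP8 was higher and FGF4 lower by adjusted p, beside the same shares over all genes, and none was called. TBXT and MIXL1, which define the streak, stayed near 0. SP8 did not pass without 12 h replicate 1 or 2 or any one of the 6 h libraries, nor with only the groups compared, with or without the block. Of the 18 genes of nascent and paraxial mesoderm, 1 was higher and 1 lower by adjusted p, beside 9.15% and 8.43% over all genes, and none was called. The receptor KDR was the higher one (168 CPM at 12 h and 129 CPM at 6 h) and the receptor PDGFRA the lower (3.26 and 5.98 CPM). In the definitive endoderm list 3 of 19 tested genes fell by adjusted p, beside 8.43% over all genes, and 0 rose. Those that fell were CER1 as above, HHEX and FZD8. HHEX, a homeobox gene of anterior endoderm, averaged 2.72 CPM at 12 h and 4.81 CPM at 6 h.

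In the neural ectoderm list 2 of 18 tested genes were called higher, beside 0.480% over all genes, but the libraries of these genes overlapped. SOX21 had 12.8, 11.4 and 4.67 CPM at 12 h and 2.3, 3.15 and 5.26 CPM at 6 h (log2 1.44 ± 0.32; edgeR quasi-likelihood adjusted p = 0.00103). LHX5, a LIM homeobox gene, had 6.98, 6.44 and 1.51 CPM at 12 h and 0.534, 0.623 and 1.91 CPM at 6 h (log2 2.29 ± 0.54; edgeR quasi-likelihood adjusted p = 0.00194). In both genes 12 h replicates 1 and 2 were above every 6 h library, whereas 12 h replicate 3 lay within the range of the 6 h libraries. In a fit of only the compared groups with replicate number as a block, 0 genes of the list were called. The neuronal adhesion gene CDH2 fell to 72.7 CPM at 12 h, against 108 CPM at 6 h (log2 -0.57), and NES, an intermediate filament of neural progenitors, to 263 CPM, against 338 CPM.

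Genes of the amino acid and unfolded protein response, which the factors ATF4 and XBP1 control, changed in small steps. Of 20 members 15 were lower and 0 higher by adjusted p, beside 8.43% lower over all genes, and 0 reached 2-fold; the median log2 fold change was -0.34. CHAC1, which breaks down glutathione, had 12.8, 11.2 and 11.1 CPM at 12 h and 20.2, 21.4 and 19.2 CPM at 6 h (log2 -0.79 ± 0.09; edgeR quasi-likelihood adjusted p = 1.03e-08). The glycoprotein gene STC2 averaged 41.7 CPM at 12 h and 64.2 CPM at 6 h, and the cystine transporter SLC7A11 89.5 and 135 CPM. PSAT1, an enzyme of serine synthesis, averaged 439 and 591 CPM. ATF4 itself fell less, to 338 CPM at 12 h, against 389 CPM at 6 h (log2 -0.20).

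A promoter was found in the RefSeq table (GRCh38.p14, 250 bases before to 50 after the start) for 18 of these 20 genes and for 13129 of the tested genes. The element TGATGNAA, bound by pairs of C/EBP and ATF proteins and searched on both strands, was in 4 of the 18 (22.2%; exact 95% interval 6.41 to 47.6%) and in 1.74% of the 13129. The AP-1 element TGANTCA was also in 4 of the 18, against 4.72% of the 13129, and 0 of the matches overlapped. In the higher and lower called genes, 0 of 50 and 2 of 73 promoters held TGATGNAA. The search for it was added after the data were seen, and a match is a description, not a site or a cause. SLC3A2, a subunit of amino acid transporters, holds its match 38 bases after the start. The other 3 matches lie before the start and are printed because their genes are members of the list that fell: CHAC1, HERPUD1 (a protein of degradation at the endoplasmic reticulum) and ASNS (asparagine synthetase). The sequences run 5′ to 3′ on the strand of the gene, and capitals mark the match, which in CHAC1 and HERPUD1 is on the opposite strand.
CHAC1, chr15:40953221-40953520, plus strand: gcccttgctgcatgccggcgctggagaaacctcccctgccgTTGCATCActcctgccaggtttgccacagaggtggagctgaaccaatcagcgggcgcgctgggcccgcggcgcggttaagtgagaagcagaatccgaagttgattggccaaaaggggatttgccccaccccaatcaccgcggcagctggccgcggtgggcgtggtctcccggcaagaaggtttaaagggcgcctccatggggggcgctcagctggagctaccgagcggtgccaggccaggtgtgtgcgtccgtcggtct
HERPUD1, chr16:56931892-56932191, plus strand: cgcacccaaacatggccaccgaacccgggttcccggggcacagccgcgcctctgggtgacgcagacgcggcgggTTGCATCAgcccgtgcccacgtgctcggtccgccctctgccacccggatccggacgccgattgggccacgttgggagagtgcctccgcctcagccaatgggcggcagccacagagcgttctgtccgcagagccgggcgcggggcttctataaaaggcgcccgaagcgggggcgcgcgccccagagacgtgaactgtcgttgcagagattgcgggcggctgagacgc
ASNS, chr7:97872359-97872658, minus strand: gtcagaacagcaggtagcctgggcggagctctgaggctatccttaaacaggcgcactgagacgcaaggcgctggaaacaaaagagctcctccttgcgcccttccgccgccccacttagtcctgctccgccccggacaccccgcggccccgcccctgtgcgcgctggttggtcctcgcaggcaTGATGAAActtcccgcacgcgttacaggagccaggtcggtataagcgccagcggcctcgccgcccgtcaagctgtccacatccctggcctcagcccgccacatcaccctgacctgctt
The match starts 209 bases before the start of CHAC1, 176 before that of HERPUD1 and 68 before that of ASNS. Their levels moved by unequal amounts: HERPUD1 averaged 19.8 CPM at 12 h and 27.9 CPM at 6 h (log2 -0.49), and ASNS 248 and 287 CPM (log2 -0.21).

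The other motifs were searched in the same promoters on both strands. The element CCAAT, also added after the data were seen, was in 11 of the 18 promoters of the amino acid list (61.1%; exact 95% interval 35.7 to 82.7%), against 36.3% of the 13129. It was also in 15 of 23 promoters of the sterol and fatty acid list (65.2%) and in 9 of 15 of the BMP target list (60%). The p53 list held it in 10 of 16 (62.5%) and the epithelial list in 3 of 13 (23.1%). Among called genes CCAAT was in 16 of 50 higher (32%) and 15 of 73 lower (20.5%, exact 95% interval 12 to 31.6%). By adjusted p alone it was in 37.8% of the higher and 32.2% of the lower promoters. The TCF/LEF element CTTTGAA was in 5 of 50 promoters of called higher genes (10%, exact 95% interval 3.33 to 21.8%) and in 3 of 73 of called lower genes, against 2.89%. In the larger sets by adjusted p alone the excess was absent, with 37 of 1385 higher (2.67%) and 26 of 1276 lower (2.04%). The SMAD1/5 element core GGCGCC was in 12 of 50 and 23 of 73, against 29.3%, and the SMAD box GTCTAG in 1 of 50 and 3 of 73, against 5%. AP-1 was in 3 of 50 and 6 of 73, and the GATA element AGATAA in 4 of 50 and 2 of 73, against 5.6%. The TFAP2 element GCCNNNGGC was in 14 of 50 and 28 of 73, against 31.4%, and the TEAD element GGAATG in 6 of 50 and 7 of 73, against 10.9%. The sterol regulatory element TCACNCCAC, added later too, was in 1 of 23 promoters of the sterol and fatty acid list (4.35%), against 1.11%. The heat shock element, another addition, was in 0 of 50 and 0 of 73, against 0.328%. Overlaps among these motifs were not counted.

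The p53 target and apoptosis list also had lower members only. Of 21 members 12 were lower and 0 higher by adjusted p, beside 8.43% and 9.15% over all genes, with a median log2 fold change of -0.28 and 0 called. SESN1, a stress-induced regulator of mTORC1, averaged 23.8 CPM at 12 h and 33.7 CPM at 6 h, and MDM2, the ligase that degrades p53, 98.1 and 119 CPM. The cell cycle inhibitor CDKN1A averaged 8.21 CPM at 12 h and 11.8 CPM at 6 h.

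Many genes of sterol synthesis rose in small steps. Of 30 genes of cholesterol and fatty acid synthesis 15 were higher by adjusted p, beside 9.15% over all genes, 5 were lower and 0 were called. HMGCS1, a synthase at the head of the mevalonate pathway, had 404, 449 and 440 CPM at 12 h and 343, 333 and 310 CPM at 6 h (log2 0.39 ± 0.07; edgeR quasi-likelihood adjusted p = 4.2e-05). All 12 h libraries were above all 6 h libraries. INSIG1, which retains the sterol sensor SCAP in the endoplasmic reticulum, averaged 57.7 CPM at 12 h and 44.3 CPM at 6 h, and the isomerase IDI1 107 and 78.9 CPM. The members that fell included the desaturase SCD and FDPS, which makes farnesyl pyrophosphate, at 160 CPM at 12 h and 190 CPM at 6 h (log2 -0.25). HMGCS1 stood at 673 CPM in untreated cells, 668 CPM at 1 h, 329 CPM at 6 h, 431 CPM at 12 h and 642 CPM at 24 h of BMP4.

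**Figure D4:**
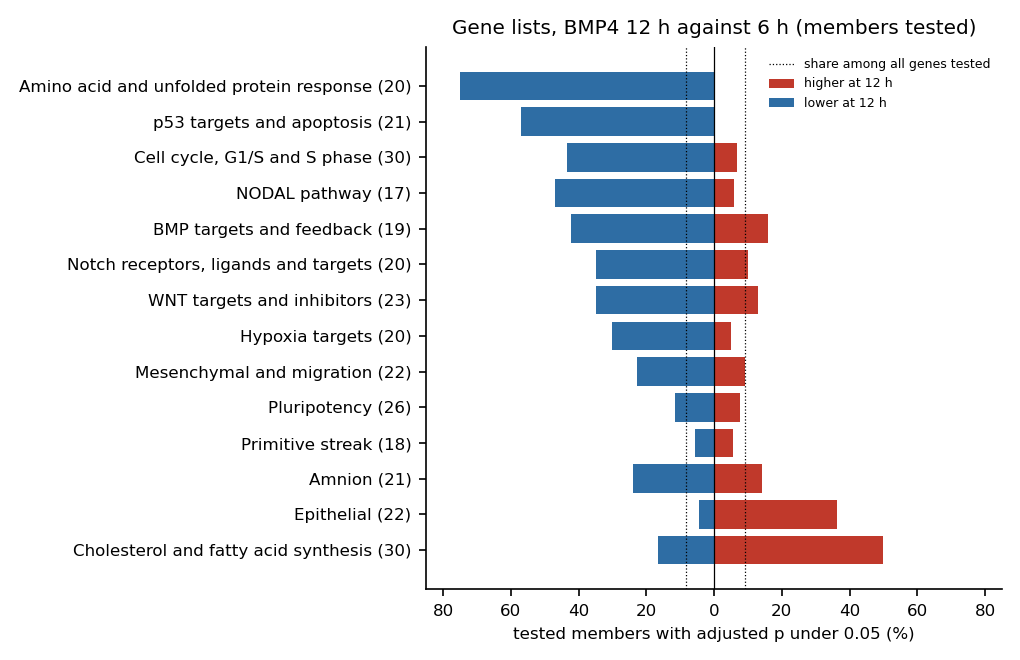
Share of tested members of 14 gene lists that were higher (right) or lower (left) at 12 h than at 6 h by adjusted p, in percent, with dotted lines at the shares over all 19603 genes (9.15% higher, 8.43% lower). The amino acid and p53 lists lie on the lower side only, with 15 of 20 and 12 of 21 members.

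Of 30 genes of G1/S and S phase 13 were lower and 2 higher by adjusted p, whereas of 25 G2/M genes 2 were lower and 4 higher. The shares over all genes were 8.43% lower and 9.15% higher. Across both lists 1 gene was called, the inhibitor CDKN2B, lower and below 1 CPM at both times. That call was lost without 12 h replicate 3 (edgeR quasi-likelihood adjusted p = 0.134) or 6 h replicate 2 (0.0623). It was also lost with only the groups compared (edgeR quasi-likelihood adjusted p = 0.0769) and with the replicate block added to that fit (0.129). CCND1, the D-type cyclin of G1, had 180, 172 and 169 CPM at 12 h and 234, 242 and 245 CPM at 6 h (log2 -0.47 ± 0.04; edgeR quasi-likelihood adjusted p = 9.36e-11). CCNE2, an E-type cyclin, averaged 11.5 CPM at 12 h and 16.96 CPM at 6 h, and CDC6, which licenses replication origins, 148 and 182 CPM. CCND2, another D-type cyclin, went the other way, at 235 CPM at 12 h and 203 CPM at 6 h. Without 6 h replicate 2 the count of lower G1/S and S phase genes was 8, and the count of higher ones was 1 without 12 h replicate 1 or 3 or 6 h replicate 1 or 2. In the G2/M list the lower genes were 1 without 12 h replicate 1 or 6 h replicate 1 or 2, and the higher genes 2 without 12 h replicate 2 or 6 h replicate 1 or 3.

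Epithelial and mesenchymal genes changed in small steps. Of 22 epithelial genes 8 were higher and 1 was lower by adjusted p (median log2 0.13), and of 22 mesenchymal genes 2 were higher and 5 lower (median -0.0552). Over all genes 9.15% were higher and 8.43% lower. The keratin KRT8 averaged 307 CPM at 12 h and 239 CPM at 6 h, and the adherens junction cadherin CDH1 468 and 402 CPM. VIM, the mesenchymal intermediate filament, had 162, 129 and 154 CPM at 12 h and 234, 233 and 229 CPM at 6 h (log2 -0.64 ± 0.09; edgeR quasi-likelihood adjusted p = 8.33e-07). The mesenchymal factor ZEB2 was called higher, at 1.87 CPM at 12 h and 0.833 CPM at 6 h, but not without 12 h replicate 1 or 2 or 6 h replicate 1 or 2 (edgeR quasi-likelihood adjusted p from 0.0971 to 0.134). The ZEB2 call was also lost with only the groups compared and the replicate block (edgeR quasi-likelihood adjusted p = 0.0609). Without 12 h replicate 1 the count of higher epithelial genes was 5. The lower mesenchymal genes were 3 without 12 h replicate 2, and the higher ones were 1 without 12 h replicate 1 or 2 and 0 without 6 h replicate 1 or 2.

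Among Notch genes 7 of 20 were lower and 2 higher by adjusted p, and 2 were called lower, the target genes HES4, below 1 CPM at both times, and HEYL, at 1.44 CPM at 12 h and 3.26 CPM at 6 h. The shares over all genes were 8.43% lower, 9.15% higher and 0.571% called lower. The HES4 call was lost without 12 h replicate 1 or 3 or 6 h replicate 3, without the filter on low counts, and with only the groups compared, with or without the block (edgeR quasi-likelihood adjusted p from 0.0571 to 0.129); DESeq2 gave it no adjusted p. With the block in that fit, 0 Notch genes were higher. Of 23 WNT targets and inhibitors 8 were lower and 3 higher, and 5 were lower with only the groups compared and the block. AXIN2, a feedback inhibitor, rose to 24.2 CPM at 12 h, against 18.0 CPM at 6 h, and the extracellular inactivator NOTUM fell to 4.48 CPM, against 7.62 CPM. Of 29 genes of FGF signalling 5 were higher and 4 lower, beside the same shares of 9.15% and 8.43%. The ERK feedback genes DUSP6 (164 CPM at 12 h and 129 CPM at 6 h) and IL17RD (139 and 102 CPM) rose, and the receptor FGFR3 fell to 89.4 CPM, against 137 CPM.

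The same 6 hours with Activin+BMP4 come from other libraries, so the call lists can be set against each other; the conditions differ in Activin and in BMP4 dose, which cannot be told apart. With Activin+BMP4, 332 genes were called (1.69%), 93 higher (0.474%) and 239 lower (1.22%); by adjusted p alone 2209 were higher (11.3%) and 1993 lower (10.2%). Of these, 21 higher genes were called in both conditions, 22.3% of the BMP4 and 22.6% of the Activin+BMP4 list, and 44 lower genes, 39.3% and 18.4%. No gene was called in opposite directions. PCAT14, NTS, HMOX1, HSPA1A and SLC30A2 were among the genes called in both: HMOX1 stood at 13.2 CPM at 12 h and 43.5 CPM at 6 h with Activin+BMP4 (log2 -1.71).

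The difference of the changes was tested directly, and 27 genes were called (0.138%), 12 with the more positive change in BMP4 (0.0612%) and 15 with the more negative (0.0765%). By adjusted p alone these were 60 (0.306%) and 81 (0.413%). LEFTY2 averaged 54.5 CPM at 12 h and 52.4 CPM at 6 h with Activin+BMP4, while it fell with BMP4 as given above, a difference of -2.0 in log2 fold change with an SE of 0.38 (edgeR quasi-likelihood adjusted p = 0.00178). CER1 differed by -2.13 and NODAL by -1.20, and the NODAL call was lost without BMP4 12 h replicate 1 or 2, any BMP4 6 h library, Activin+BMP4 12 h replicate 1 or Activin+BMP4 6 h replicate 3 (edgeR quasi-likelihood adjusted p from 0.0627 to 0.222). EOMES, a T-box factor of the streak, averaged 2.68 CPM at 12 h and 2.38 CPM at 6 h with BMP4, against 6.36 and 1.84 CPM with Activin+BMP4, and WNT3, a ligand of the streak, 7.07 and 7.58 CPM against 27.4 and 14.0 CPM.

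**Figure D5:**
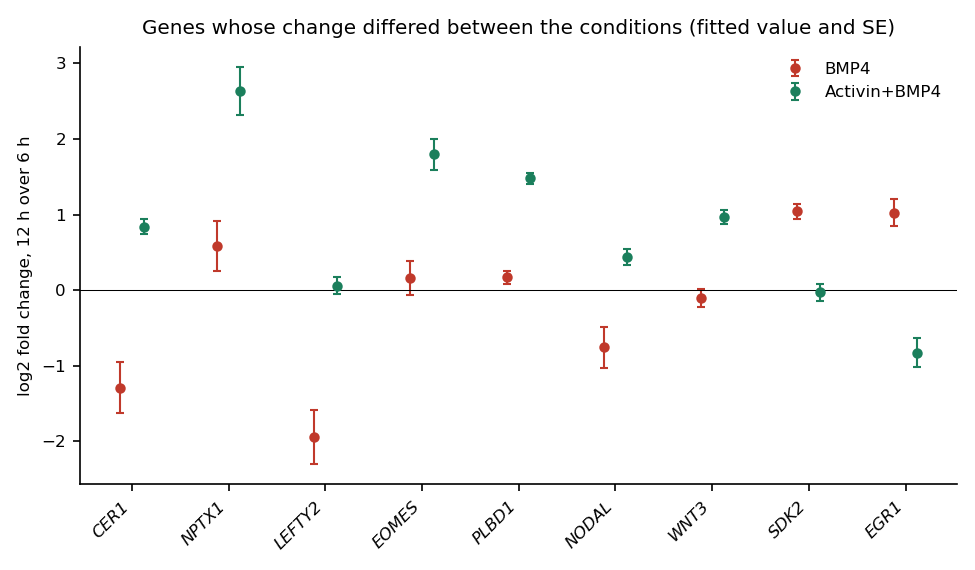
Log2 fold change of 12 h over 6 h with its standard error for 9 named genes whose change differed between the conditions, BMP4 at the left of each pair and Activin+BMP4 at the right. SDK2 and EGR1 have the higher change with BMP4, and the other 7 genes the lower.

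SDK2 and EGR1 had the more positive change with BMP4. SDK2 averaged 13.8 CPM at 12 h and 14.1 CPM at 6 h with Activin+BMP4, and the difference of the changes was 1.07 ± 0.15 (edgeR quasi-likelihood adjusted p = 2.22e-05). EGR1 fell with Activin+BMP4, to 5.21 CPM at 12 h, against 9.27 CPM at 6 h, and the difference was 1.86 ± 0.26 (edgeR quasi-likelihood adjusted p = 2.87e-05). NANOG, which fell with BMP4, stood at 264 CPM at 12 h and 263 CPM at 6 h with Activin+BMP4, and its difference of -0.29 passed the adjusted p (edgeR quasi-likelihood, 0.00121) without reaching 2-fold. Members of the lists that changed in small steps with BMP4 had these values with Activin+BMP4: CHAC1 changed by -0.75, CCND1 by -0.49 and HMGCS1 by 0.42 on the log2 scale.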

How the data were processed

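RNA was sequenced from 51 H1 libraries, 17 groups of 3, and the authors deposited whole-number counts per gene (58051 genes, 98.1% with a symbol). Per the submitters' processing notes, cutadapt 1.5, STAR 2.5.2a, RSEM 1.3.0 and GRCh38 were used; which tool made the deposited counts, the annotation release and the strand setting are not given in the sources used here, so the values may be rounded RSEM estimates and overlapping or near-identical genes are uncertain. Gene coordinates are those of GENCODE 29. All 51 count columns matched a sample and 0 matched none.

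Counts were fitted with edgeR 4.0.16 (R 4.3.3, limma 3.58.1): filterByExpr (minimum count 10, minimum total 15) kept 19603 genes with 99.95% of counts, TMM factors were applied, and quasi-likelihood models with 1 mean per group used all 51 libraries. The contrast was BMP4 12 h over 6 h, beside the same interval with Activin+BMP4 and the difference of both. Standard errors are the log2 fold change over the square root of F. Some genes that the rule for names takes are not reported here. The members, the 44 gene lists and the rule for names were chosen with earlier results of these data known. The rule took up to 15 genes each way among called genes with at least 10 CPM, no overlap of libraries and no clone-type symbol, up to 6 each way for the difference between conditions, and up to 6 members of a list (any member of the pluripotency, BMP, NODAL, streak and amnion lists).

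Tested on simulated counts of 19603 genes for BMP4 12 h over 6 h, 100% of 67 genes changed 2.5-fold and of 66 changed 6-fold were called. Of 67 changed 1.3-fold, 77.6% passed the adjusted p, as did 0.0515% of 19403 unchanged genes. The changed genes were drawn only from better expressed genes. Every gene was given the same spread between replicates, and no library was set apart. The shares found therefore do not cover calls at low levels. Of the real calls, 39 higher and 56 lower ones were under 1 CPM in the group where they were higher. Calls were recounted with RLE (relative log expression) factors, no scaling, other filters, DESeq2 1.42.0, only the groups compared, a replicate block, and each library left out. Promoters came from RefSeq (GRCh38.p14); 7 motifs and 4 added after seeing the data were searched. Exact binomial intervals cover counting error only.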

Additional observations from a re-analysis of the deposited data

Results flagged for a closer look

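For 9 named genes the change from 6 h to 12 h differed between BMP4 and Activin+BMP4 by edgeR's quasi-likelihood test of that difference, and each is given as the difference in log2 fold change, BMP4 minus Activin+BMP4. CER1 had -2.13, with 39.3 CPM at 12 h and 21.9 CPM at 6 h in Activin+BMP4. NPTX1, a neuronal pentraxin, had -2.05, with 3.88 and 2.60 CPM in BMP4 and 10.5 and 1.69 CPM in Activin+BMP4. LEFTY2 had -2.0, EOMES -1.63 and NODAL -1.20. PLBD1, a phospholipase B-like protein, had -1.31, with 11.1 and 9.86 CPM in BMP4 and 48.3 and 17.3 CPM in Activin+BMP4 (adjusted p = 1.81e-10). WNT3 had -1.07, SDK2 1.07 and EGR1 1.86. The NPTX1 call was lost without BMP4 6 h replicate 3, Activin+BMP4 12 h replicate 3 or Activin+BMP4 6 h replicate 2 or 3 (edgeR quasi-likelihood adjusted p from 0.0544 to 0.0763). SDK2 fell just under 2-fold, to 0.98, without BMP4 6 h replicate 1 or Activin+BMP4 6 h replicate 3, and the NODAL call was lost as described above. Activin and the BMP4 dose cannot be told apart in these differences.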

How the results depend on the processing

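RLE factors, no scaling, DESeq2 and a fit of only the groups compared gave 204, 207, 158 and 174 called genes, against 206, and no named value reversed under any alternative run. Without the filter, 155 genes were called higher and 159 for the difference between conditions. With the stricter filter, which tests fewer genes, 103 were called, 50 higher and 53 lower, and 158 with Activin+BMP4. By adjusted p alone there were 3445 genes, 1793 higher and 1652 lower, 4202 with Activin+BMP4 and 141 for the difference. With 5 CPM as the level for on, 0 genes in place of 2 were switched off. Same-numbered BMP4 libraries showed no common deviation (correlations of 0.0497, 0.036 and -0.202), and those of Activin+BMP4 had 0.108, 0.0232 and 0.112. Differently numbered BMP4 libraries reached 0.258 (12 h replicate 3 with 6 h replicate 2), 0.22 (1 with 3) and -0.26 (1 with 2). With 3 libraries per time these values cannot exclude pairing. With the replicate block 205 genes were called, and 158 with the replicate block and only the groups compared. In that last fit 984 were higher and 1100 lower by adjusted p alone. With each library left out in turn, 167 to 227 genes were called, 69 to 105 higher and 95 to 132 lower; by adjusted p alone 1230 to 1532 were higher and 1304 to 1549 lower. Activin+BMP4 gave 274 to 323 calls, the switched-on count was 0 to 2 and the switched-off count 2 to 3. The difference between conditions gave 14 to 43 calls: 43 without Activin+BMP4 6 h replicate 1, 16 without its replicate 2, 14 without its replicate 3, 17 without BMP4 12 h replicate 1 and 15 without BMP4 6 h replicate 2. NODAL and NPTX1 lost that call in several of these fits. Named genes close to 2-fold, such as SDK2, EGR1, DHRS2 and PRPF39, lost their call without single libraries by falling under that fold. The depth limits genes below about 1 CPM, where few counts carry a call.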
